A study of Mus musculus with 22 samples.

Results

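The cathepsins are lysosomal proteases, and the 10 genes described here, *Ctsa*, *Ctsb*, *Ctsc*, *Ctsd*, *Ctsf*, *Ctsh*, *Ctsl*, *Ctso*, *Ctss* and *Ctsz*, were chosen by name from the mouse cathepsin genes. They made up 10 of the 55385 genes and 64 of the 142552 transcripts that were quantified, and each gene's level is the sum over its transcripts. Cathepsins are made as inactive precursors, carried to endosomes and lysosomes largely by mannose 6-phosphate receptors, and become active in the acid interior. They digest proteins that the cell has taken up or retired, and in the brain they are best known from microglia, where some also trim antigens and their chaperones for display on MHC class II. The activity of the cysteine proteases among them is held in check by cystatins and stefins.

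The study profiled messenger RNA bound to tagged ribosomes (RiboTag) in 6 cell types of the mouse nervous system, with 3 biological replicates each. In RiboTag mice, Cre recombinase switches the ribosomal protein gene *Rpl22* to an HA-tagged form, so that ribosomes of the Cre-expressing cells can be pulled down with an antibody to the tag. All animals were Rpl22 Fl/+ offspring of B6N.129-Rpl22tm1.1Psam/J females, carried a Cre driver, and gave tissue at 6 weeks of age. Dentate granule cells (hippocampus) and layer V neurons (cortex) were both labelled with Rbp4-Cre and differ by the tissue taken, while cerebellar granule cells carried Gabra6-Cre and cerebellum was taken. Inhibitory interneurons came from hippocampus with Dlx6a-Cre, and each of their libraries pooled 2 mice. Cortical astrocytes carried a driver that the labels call Aldh1-cre and the methods describe as the tamoxifen-inducible Aldh1l1-cre/ERT2, and cortical microglia carried Tmem119-cre, also the inducible form, with tamoxifen given by gavage from 3 weeks of age. Males and females were mixed within the cell types, so sex was not a group.

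Of the 22 libraries, 4 were a further sequencing of a replicate in batch 2, which left 18 once the batch 1 library was taken for those replicates. These libraries held between 38270477 and 71440915 estimated counts, with a median of 54631726. All microglia and interneuron libraries were from batch 2 and the other libraries used were from batch 1. Batch and cell type therefore cannot be told apart in the comparisons of all 18. Values within batch 2 are given beside some folds, and wherever the call of a cathepsin changed within batch 2. For the replicates sequenced in both batches, the level of a cathepsin at 10 TPM or more differed between the libraries by a log2 ratio of -0.07 to 0.08 over 26 pairs of values. The 14 pairs under 10 TPM differed more, from -1.57 to 1.42 (0.01 TPM added to each level). The widest were those of *Ctsh* (-1.57), *Ctss* (1.42) and *Ctsc* (-1.23) in cerebellar granule cells and *Ctss* in dentate granule cells (0.69), so the order of these genes among neurons is less certain. The batch 2 library of layer V replicate 1 is labelled male and its batch 1 library female, and *Xist* was at 2.13 TPM and the Y-linked *Ddx3y* at 0.034 TPM in the batch 2 library, which entered only in the alternatives.

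The labelled cell types were checked against marker genes. All 10 microglia markers were highest in the microglia libraries, where they summed to 20807, 21773 and 20489 TPM (a level scaled for transcript length and library size). All 7 astrocyte markers were highest in the astrocyte libraries, with sums of 9033, 8752 and 9081 TPM, and all 4 interneuron, 3 dentate granule and 3 cerebellar granule markers were highest in their own type. Of the 4 layer V markers only *Fezf2* was highest in layer V neurons, at 85.5 TPM, whereas *Bcl11b* was highest in dentate granule cells (159 TPM), *Etv1* in cerebellar granule cells (728 TPM) and *Rbp4*, whose promoter drives Cre there, in interneurons (87.0 TPM). *Fezf2* and the interneuron marker *Dlx6os1* were at 0 in the cerebellar granule cells.

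Some libraries held other markers. Astrocyte replicate 1 stood apart with 3642 TPM for the sum of the choroid plexus and ependymal markers *Ttr* and *Foxj1*, against 11.5 and 18.7 TPM in the other astrocyte replicates. Interneuron replicate 3 had 3.21 TPM for the cerebellar granule markers, against 37.3 and 30.5 TPM in its group. All 6 oligodendrocyte markers were highest in the interneuron libraries, with sums of 2855, 3059 and 2866 TPM and *Mbp* the most abundant at 1184 TPM, against 132 to 1107 TPM as the means of the other types. The 5 endothelial and 5 mural markers had their highest sums in microglia, with means of 343 and 279 TPM, and the 6 perivascular macrophage markers reached 12.4 TPM there. The 4 oligodendrocyte precursor markers were highest in astrocytes as a sum (193 TPM), and the 5 pan-neuronal markers ranged from 3585 TPM in dentate granule cells to 14342 TPM in cerebellar granule cells, with 958 TPM in astrocytes and 401 TPM in microglia.

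Summed over the 10 genes, cathepsin mRNA was far more abundant in microglia than in any other cell type. The sum was 21689, 22314 and 21050 TPM in the microglia libraries, which is 2.17% of all TPM, and 1682, 1579 (replicate 2) and 1598 TPM in astrocytes. In the neurons it was 1134, 1158 and 1120.1 TPM in interneurons, 1090, 1062 and 1052 TPM in cerebellar granule cells, 649, 636 and 662 TPM in layer V neurons, and 519, 593 and 584 TPM in dentate granule cells. The ranges of the 6 cell types did not overlap, and microglia stood at 25.4 times the mean of the 4 neuronal types, astrocytes at 1.89 times. These are bulk libraries, so fewer expressing cells and less RNA per cell cannot be told apart. Without astrocyte replicate 1 the astrocyte mean was 1588 TPM, against 1619 ± 54.9 TPM (SD, n = 3) with it.

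The make-up of the sum also differed. In microglia *Ctss* made up 41.2% of it, *Ctsd* 34.3% and *Ctsb* 6.00%. In the other 5 cell types *Ctsb* led, from 29.7% in astrocytes to 51.0% in cerebellar granule cells, and *Ctsd* came next with 19.7% to 26.1%. This order rests in part on a retained-intron transcript of *Ctsb*. With protein-coding transcripts alone, *Ctsd* exceeded *Ctsb* in astrocytes (423 against 230 TPM) and interneurons (289 against 257 TPM). *Ctss* held 1.21% of the astrocyte sum and at most 0.370% of the sum in any neuronal library. Microglia had the highest level of 9 of the genes and astrocytes that of *Ctso*. Of the 50 pairs of neighbours in the genes' orders of cell types, 45 had ranges that did not overlap and 5 overlapped.

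**Figure D1:**
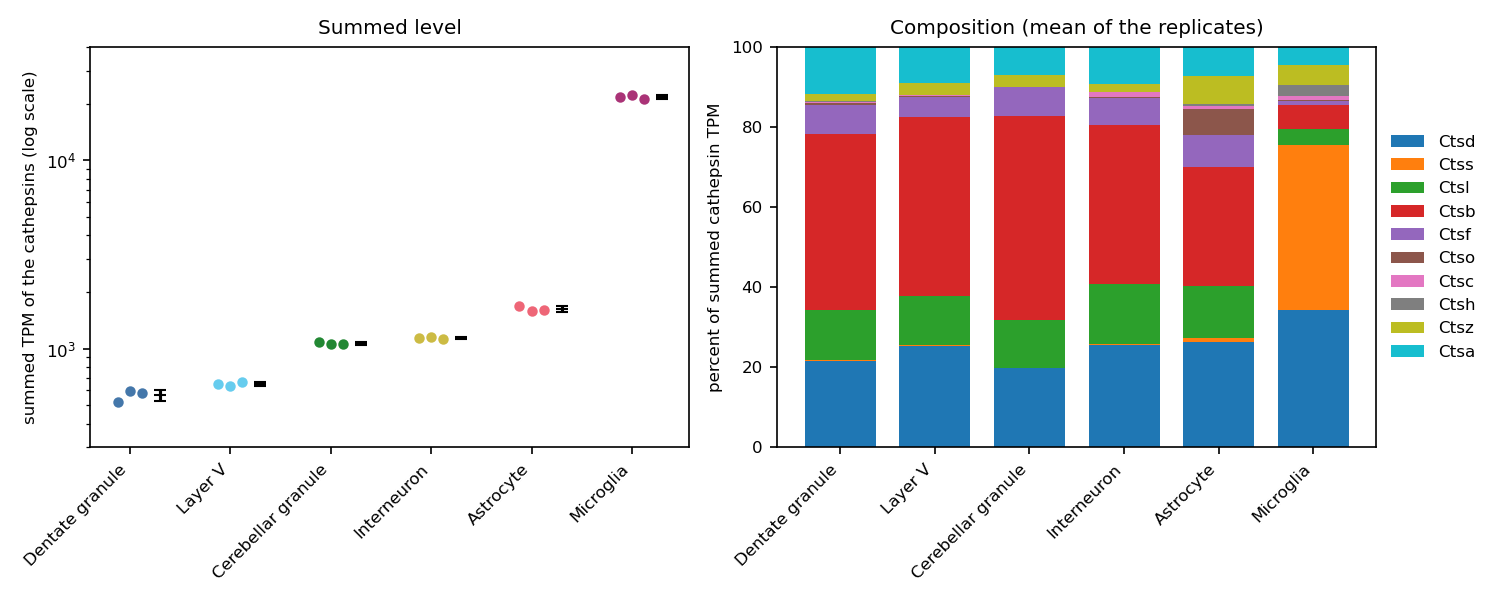
Left, the summed level of the 10 cathepsins in each library (points, TPM on a log axis) with the mean and SD of each cell type in black. Right, each gene's mean percent of that sum, with *Ctss* and *Ctsd* making up most of the bar in microglia and *Ctsb* the largest share elsewhere when all transcripts are counted.

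**Figure D2:**
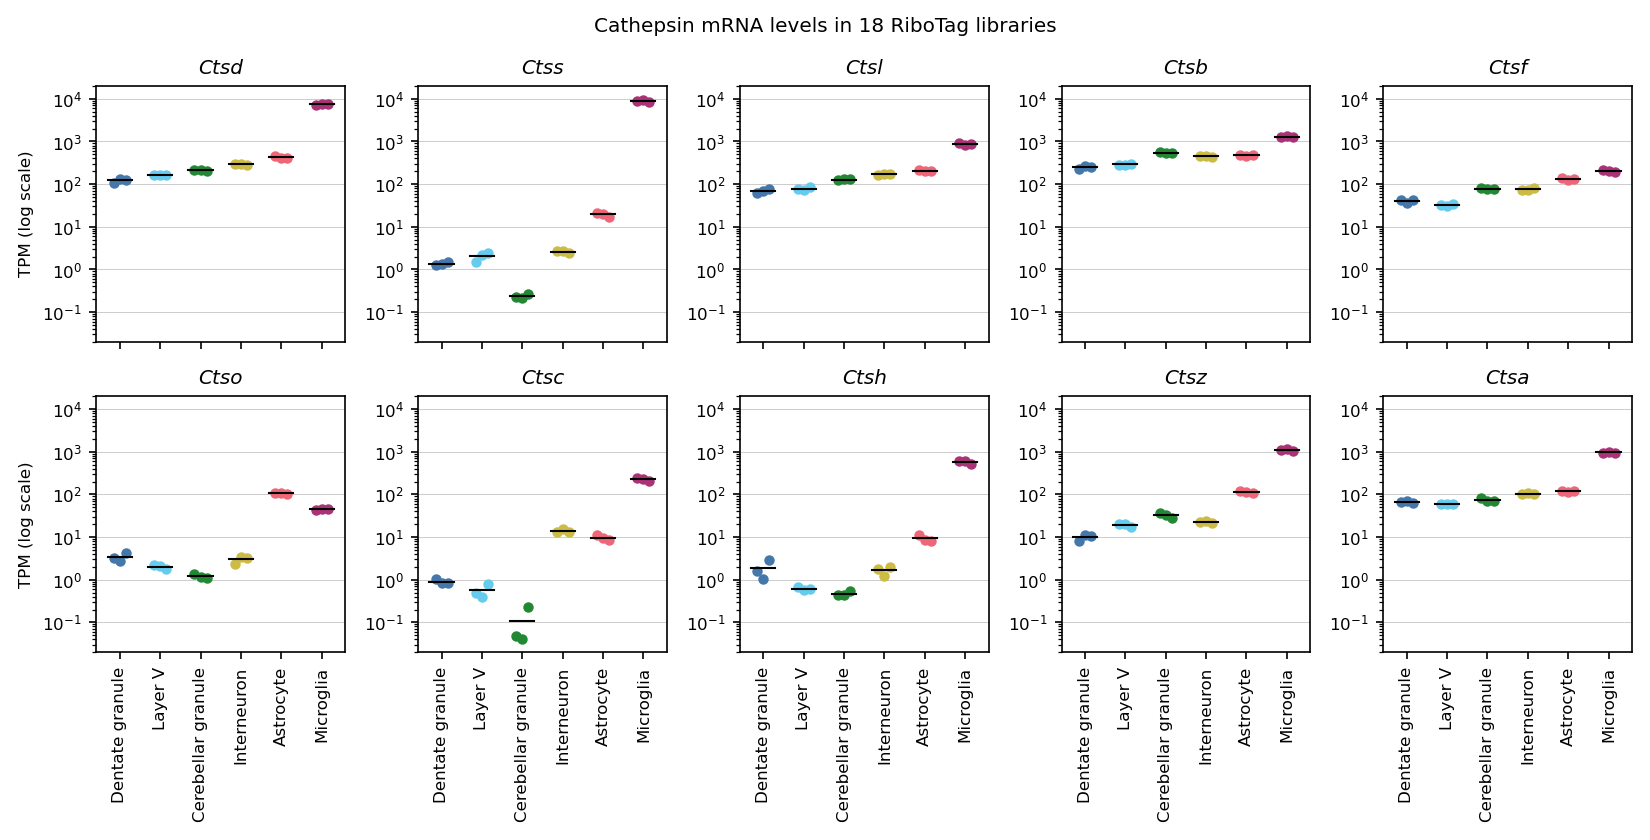
Level of each cathepsin in each of the 18 libraries (points, TPM on a log axis), with black lines for the means of the 6 cell types. Microglia are highest in every panel except *Ctso*, where astrocytes are.

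*Ctsd* (ENSMUSG00000007891.16, chromosome 7, 142375911 to 142388038, minus strand, GRCm38) encodes cathepsin D, the aspartic endopeptidase of the lysosome. Its level was 7241, 7541 and 7522 TPM in microglia and 449, 408 and 413 TPM in astrocytes. In interneurons it was 292, 293 and 283 TPM, in cerebellar granule cells 212, 212 and 205 TPM, in layer V neurons 166, 160.4 and 165 TPM, and in dentate granule cells 106, 134 and 126 TPM. No neighbours in this order overlapped. *Ctsd* had 1 leading transcript, *Ctsd*-202, in every cell type, and protein-coding transcripts held at least 99.89% of its TPM in each library.

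*Ctss* (ENSMUSG00000038642.10, chromosome 3, 95526786 to 95556403, plus strand) encodes cathepsin S, a cysteine endopeptidase that cleaves the invariant chain in antigen-presenting cells. Its level was 9049, 9352 and 8393 TPM in microglia and 21.6, 20.3 and 17.0 TPM in astrocytes. In interneurons it was 2.72, 2.77 and 2.39 TPM, in layer V neurons 1.51, 2.24 and 2.45 TPM, in dentate granule cells 1.28, 1.34 and 1.495 TPM, and in cerebellar granule cells 0.225, 0.215 and 0.271 TPM. *Ctss* was thus the most abundant cathepsin in microglia and among the 4 scarcest in each neuronal type, with interneurons and layer V neurons overlapping. The cerebellar values rested on 5 to 7 estimated counts per library.

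The low *Ctss* values outside microglia were set beside the microglia markers in the same libraries. The 10 markers summed to 92.7, 87.05 and 72.3 TPM in the astrocyte libraries, with *Sall1* the most abundant at 20.4 TPM, and none was at 0. That sum was 0.400% of the microglial one, while *Ctss* in astrocytes was at 0.220% of its microglial level. In neurons the markers summed to 9.92, 8.15 and 12.6 TPM in dentate granule cells, 8.81, 9.45 and 8.12 TPM in layer V neurons, 1.25, 1.11 and 1.27 TPM in cerebellar granule cells and 16.35, 18.6 and 17.9 TPM in interneurons. As percentages of the microglial sum these were 0.0486%, 0.0418%, 0.00576% and 0.0838%, against 0.0154%, 0.0231%, 0.00265% and 0.0294% for *Ctss*. In each of the other 5 cell types *Ctss* thus stood at a smaller percentage of its microglial level than the marker sum did. *Sall1* was also the most abundant of these markers in interneurons, at 7.045 TPM of a mean sum of 17.6 TPM, against 157 TPM in microglia.

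*Ctsl* (ENSMUSG00000021477.9, chromosome 13, 64359337 to 64370890, minus strand) encodes cathepsin L, a broad cysteine endopeptidase. It was at 937, 838 and 875 TPM in microglia and 211, 203 and 208 TPM in astrocytes. In interneurons it was at 168, 174 and 168 TPM, in cerebellar granule cells at 125, 130.0 and 129 TPM, in layer V neurons at 78.7, 73.5 and 84.5 TPM, and in dentate granule cells at 62.7, 69.2 and 78.1 TPM. Only layer V neurons and dentate granule cells overlapped. *Ctsl*-201 led in every cell type, and the shorter *Ctsl*-203, which has 262 bases of its 834 outside the exons of *Ctsl*-201, had a different order: 17.5 TPM in interneurons, 15.4 TPM in dentate granule cells, 12.6 TPM in cerebellar granule cells, 10.8 TPM in layer V neurons, 7.31 TPM in astrocytes and 7.17 TPM in microglia. Neighbours in this order overlapped, except layer V neurons and astrocytes. Its share of *Ctsl* TPM therefore ran from 22.3% ± 3.61 (SD, n = 3) in dentate granule cells to 0.814% ± 0.0649 in microglia.

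*Ctsb* (ENSMUSG00000021939.8, chromosome 14, 63122462 to 63145923, plus strand) encodes cathepsin B, a cysteine protease that also removes dipeptides from the carboxyl end. Its level was 1267, 1352 and 1284 TPM in microglia and 492, 467 and 485 TPM in astrocytes. In cerebellar granule cells it was 554, 538 and 542 TPM, in interneurons 453, 464 and 443 TPM, in layer V neurons 288, 288 and 298 TPM, and in dentate granule cells 229, 267 and 253 TPM. *Ctsb* was the only cathepsin for which a granule cell type stood above astrocytes, and its means spanned 249 to 1301 TPM over the 6 cell types. A retained-intron transcript of 801 bases, *Ctsb*-202, took 40.5% of *Ctsb* TPM in layer V neurons and up to 52.0% in astrocytes, where it exceeded the protein-coding *Ctsb*-201. The transcripts share 710 bases, and in astrocytes *Ctsb*-202 rested on 5454 to 6790.2 estimated counts against 38888 to 46045 for *Ctsb*-201, whose length is 4743 bases. With protein-coding transcripts alone, *Ctsb* was higher in interneurons (254.2 to 260.0 TPM) than in astrocytes (228.1 to 234.5 TPM).

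*Ctsf* (ENSMUSG00000083282.3, chromosome 19, 4855130 to 4860918, plus strand) encodes cathepsin F, a cysteine protease of lysosomes. It was at 213, 209 and 194 TPM in microglia and 139, 126 and 131 TPM in astrocytes. In cerebellar granule cells it was at 79.95, 77.1 and 75.7 TPM, in interneurons at 74.6, 74.4 and 79.3 TPM, in dentate granule cells at 41.4, 36.65 and 43.45 TPM, and in layer V neurons at 33.1, 31.1 and 33.45 TPM. Microglia exceeded astrocytes by 1.56 times in mean TPM (205 against 132), the smallest ratio of microglia to the next cell type among the 9 genes that microglia led. Cerebellar granule cells and interneurons overlapped.

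*Ctso* (ENSMUSG00000028015.3, chromosome 3, 81932601 to 81956725, plus strand) encodes cathepsin O, a cysteine protease of the same family. It was at 108, 108 and 102 TPM in astrocytes and 42.9, 46.5 and 44.8 TPM in microglia. In dentate granule cells it was at 3.20, 2.71 and 4.27 TPM, in interneurons at 2.31, 3.46 and 3.24 TPM, in layer V neurons at 2.24, 2.07 and 1.78 TPM, and in cerebellar granule cells at 1.33, 1.18 and 1.13 TPM. Astrocytes and microglia were apart from each other and from all neurons, and among neurons dentate granule cells and interneurons overlapped. The microglial level was 42.2% of the astrocytic one, while the 7 astrocyte markers in microglia (233, 229 and 286 TPM, *Slc1a3* the most abundant at 82.75 TPM, none at 0) stood at 2.78% of their astrocytic sum. In neurons *Ctso* was at 3.20% of its astrocytic level in dentate granule cells, 2.83% in interneurons, 1.91% in layer V neurons and 1.14% in cerebellar granule cells. The astrocyte markers stood there at 1.21%, 1.17%, 2.47% and 0.445%, and their part in the neuronal *Ctso* values was not tested.

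*Ctsc* (ENSMUSG00000030560.17, chromosome 7, 88278085 to 88310888, plus strand) encodes cathepsin C, or dipeptidyl peptidase 1, which removes dipeptides from the amino end and activates serine proteases of immune cells. It was at 244.5, 234 and 209.9 TPM in microglia and 11.1, 9.45 and 8.58 TPM in astrocytes. In interneurons it was at 12.9, 15.6 and 13.4 TPM, in dentate granule cells at 1.03, 0.836 and 0.833 TPM, in layer V neurons at 0.489, 0.400 and 0.796 TPM, and in cerebellar granule cells at 0.0490, 0.0414 and 0.226 TPM. Interneurons stood above astrocytes and at 6.08% of the microglial level, while the microglia markers in interneurons were at 0.0838%. The cerebellar values rested on 2 to 8 estimated counts per library, the dentate ones on 30 to 58.1 and the layer V ones on 33 to 51. The oligodendrocyte markers were also highest in the interneuron libraries, with the sums given above, and their part in the *Ctsc* level was not tested.

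The transcripts of *Ctsc* differed between interneurons and glia. *Ctsc*-201, with 7 exons and 1386 coding bases, held 90.6%, 91.4% and 92.3% of *Ctsc* TPM in microglia and 86.9%, 93.6% and 92.9% in astrocytes. In interneurons it held 58.2%, 51.2% and 48.8%, and *Ctsc*-203 held 41.8%, 48.8% and 47.3%, against 4.81% ± 0.158 in microglia and 6.36% ± 0.749 in astrocytes (SD, n = 3). *Ctsc*-203 has 4 exons, shares 387 of its 3220 bases with *Ctsc*-201 and has 411 coding bases. Its 2 last exons, 2833 bases between 88286894 and 88291397, lie within 1 intron of *Ctsc*-201. In interneurons it rested on 343 to 554 estimated counts per library and in astrocytes on 54.5 to 64.9, while the shares of 26.1% to 38.7% in the other neurons came from at most 24.5 counts.

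**Figure D3:**
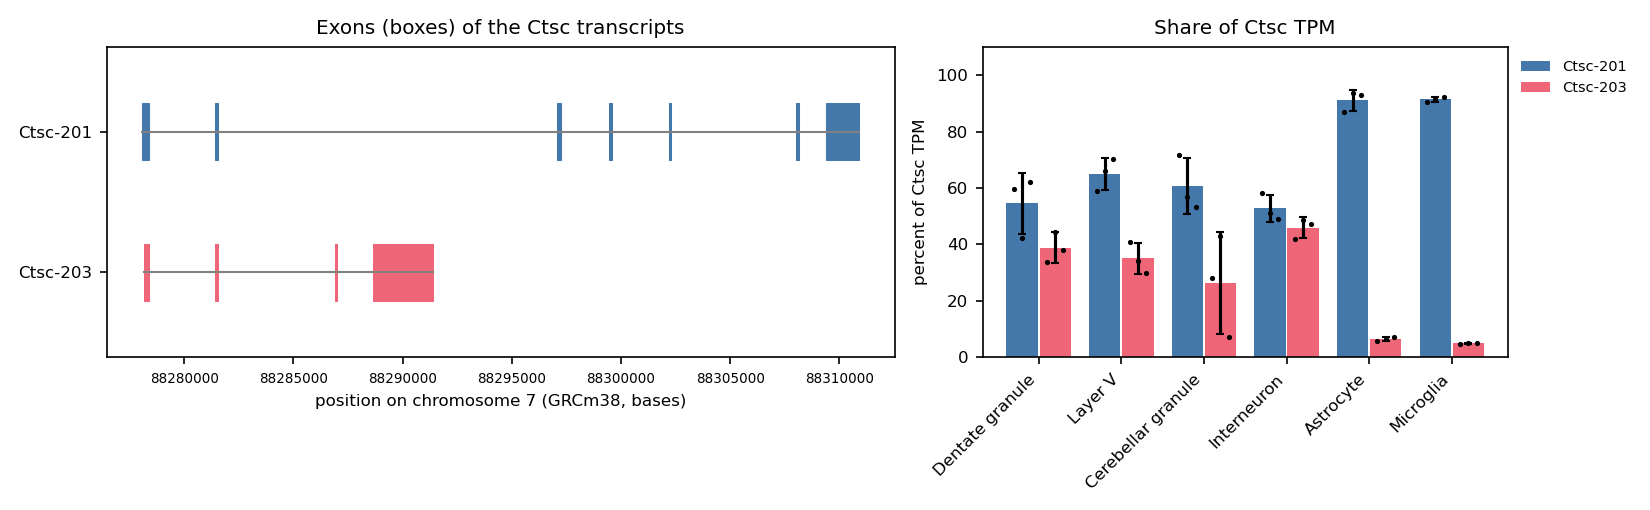
Left, exons (boxes) of *Ctsc*-201 and *Ctsc*-203 along chromosome 7 (GRCm38, bases). Right, each transcript's percent of *Ctsc* TPM in each cell type (bars, mean; black lines, SD; points, libraries), with *Ctsc*-203 at 45.95% in interneurons and 4.81% in microglia.

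*Ctsh* (ENSMUSG00000032359.14, chromosome 9, 90054152 to 90076089, plus strand) encodes cathepsin H, chiefly an aminopeptidase. It was at 617, 603 and 527 TPM in microglia and 11.1, 8.62 and 8.14 TPM in astrocytes. In dentate granule cells it was at 1.64, 1.06 and 2.97 TPM, in interneurons at 1.76, 1.23 and 1.96 TPM, in layer V neurons at 0.669, 0.588 and 0.590 TPM, and in cerebellar granule cells at 0.429, 0.431 and 0.546 TPM. Dentate granule cells and interneurons overlapped, and the neuronal values rested on 4 to 56 estimated counts per library. In astrocytes *Ctsh* was at 1.59% of its microglial level, and in neurons at 0.0805% (cerebellar granule cells) to 0.324% (dentate granule cells), in each case a larger percentage than that of the microglia marker sum. *Ctsh*-202, a transcript annotated for nonsense-mediated decay that lies wholly within the exons of *Ctsh*-201, took 36.15%, 39.25% and 36.3% of *Ctsh* TPM in microglia.

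*Ctsz* (ENSMUSG00000016256.10, chromosome 2, 174427493 to 174439039, minus strand) encodes cathepsin Z, also called X, a carboxypeptidase, and has a single transcript. It was at 1120.0, 1135 and 1048 TPM in microglia and 119, 111 and 108 TPM in astrocytes. In cerebellar granule cells it was at 36.7, 32.2 and 28.3 TPM, in interneurons at 22.1, 24.3 and 21.3 TPM, in layer V neurons at 20.6, 19.8 and 17.5 TPM, and in dentate granule cells at 7.88, 11.4 and 10.4 TPM. No neighbours in this order overlapped.

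*Ctsa* (ENSMUSG00000017760.16, chromosome 2, 164832873 to 164841032, plus strand) encodes cathepsin A, a serine carboxypeptidase that also shields beta-galactosidase and neuraminidase in a complex. It was at 959, 1003 and 953 TPM in microglia and 120.4, 117 and 117 TPM in astrocytes. In interneurons it was at 104, 105 and 104 TPM, in cerebellar granule cells at 80.2, 70.2 and 70.4 TPM, in dentate granule cells at 65.1, 68.55 and 63.7 TPM, and in layer V neurons at 58.3, 58.0 and 58.4 TPM. The TPM ranges were apart, although the neuronal types spanned only 58.2 to 105 TPM as means. The folds from estimated counts, given below, order dentate granule cells and layer V neurons the other way. *Ctsa*-202 led everywhere, and the 659-base *Ctsa*-210 held 10.9% of *Ctsa* TPM in layer V neurons and 23.5% in microglia.

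To ask how each glial type differed from neurons, levels were compared by edgeR over the 20843 genes with enough counts, and a gene was called at a Benjamini-Hochberg adjusted p of at most 0.05. A fold is against the mean of the 4 neuronal types on the log scale. All 10 cathepsins were called higher in microglia, where 43.4% of all tested genes were called higher and 38.4% lower. Their median log2 fold change was 4.94, against 0.09 over all tested genes. *Ctss* had a log2 fold change of 12.98 (SE 0.07; edgeR adjusted p 3.53e-25, at most 1.86e-12 in every alternative; higher in 3 of 3 microglia libraries than in every neuronal library), and 12.37 in the batch 2 libraries alone. *Ctsh* followed with 9.58 and *Ctsc* with 7.98, and *Ctsh* rose to 10.34 when only protein-coding transcripts were counted. Neuronal counts were few for *Ctsh* and for *Ctss* (5 to 90 estimated counts per library). Those of *Ctsc* were few in granule cells and layer V neurons, but 658.3 to 1000.3 in the interneuron libraries. *Ctsd*, well counted in all cell types, had 5.40 (SE 0.04; edgeR adjusted p 2.53e-24, at most 4.78e-12 in every alternative; higher in 3 of 3), and 5.36 within batch 2. *Ctsb* had the smallest difference, 1.88, after *Ctsf* with 2.07.

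In astrocytes all 10 were again called higher than in neurons, against 41.8% of all tested genes called higher and 34.5% lower, with a median log2 fold change of 2.16 beside 0.12 over all genes. *Ctso* led with 5.84 (SE 0.08; edgeR adjusted p 1.34e-20, at most 7.36e-10 in every alternative; higher in 3 of 3 astrocyte libraries), and had 5.90 without astrocyte replicate 1 and 5.71 within batch 2. *Ctss* followed with 4.27, *Ctsh* with 3.62, *Ctsc* with 3.55 and *Ctsz* with 2.78, while *Ctsd* had 1.42 and *Ctsb* 0.44. A call against the neuronal mean does not place astrocytes above each neuronal type. *Ctsc* was at 8.58 to 11.14 TPM in astrocytes and 12.87 to 15.59 TPM in interneurons. *Ctsb* stood below cerebellar granule cells in every astrocyte library, and with protein-coding transcripts alone also below interneurons. The 10 microglia markers also summed higher in astrocytes, to a mean of 84.0 TPM against 1.21 to 17.6 TPM in the neuronal types. Their part in the astrocyte calls was not tested. The 10 calls held without astrocyte replicate 1. This comparison shares the neuronal libraries with that of microglia.

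Between the glial types, both from cortex, 9 cathepsins were called higher in microglia, where 34.9% of tested genes were called higher, and *Ctso* was the gene called lower, as were 40.5% of tested genes. The median was 3.08, against -0.08 over all genes. The log2 fold change of *Ctso* was -1.36 (SE 0.11; edgeR adjusted p 2.26e-09, 6.07e-34 to 1.39e-05 over the alternatives; lower in 3 of 3 microglia libraries), and -1.37 within batch 2. *Ctss* had 8.70 and *Ctsf* 0.52, the ends of the range among the 9.

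Each neuronal type was then compared with the mean of the other 3, so these comparisons share libraries. In interneurons 9 cathepsins were called higher and 0 lower, against 36.3% and 27.3% of all tested genes, with a median log2 fold change of 0.60 beside 0.09. The remaining gene, *Ctsz*, had a log2 fold change of 0.17 and was not called. All 6 oligodendrocyte markers were also highest in interneurons, with a mean sum of 2926 TPM against 339, 230 and 132 TPM in dentate granule cells, layer V neurons and cerebellar granule cells, and none was at 0. Their part in these 9 calls was not tested. *Ctsc* differed most, with 5.22 (SE 0.13; edgeR adjusted p 2.07e-16, 1.27e-206 to 6.02e-09 over the alternatives; higher in 3 of 3), and 5.17 within batch 2. *Ctsl* had 0.85, *Ctsd* 0.70, *Ctsf* 0.55, *Ctsa* 0.51 and *Ctsb* 0.27, and these calls held in all 26 alternatives. *Ctss* had 1.41, and 0.91 with batch as a term and 0.57 in batch 2 alone. *Ctso*, at 0.31, lost its call within batch 2 (0.09), and without layer V replicate 3 (0.26), interneuron replicate 2 (0.16) or interneuron replicate 3 (0.25). It also did with batch as a term (0.18), with the batch 2 libraries in place of batch 1 (0.25) and with protein-coding transcripts alone (0.25). *Ctsh*, at 0.64, lost its call without interneuron replicate 1 (0.57) or replicate 3 (0.56) and with protein-coding transcripts alone (1.12). *Ctsz* gained one without dentate granule replicate 2 (0.19) or cerebellar granule replicate 1 (0.20), and with no filter on low counts (0.19).

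In cerebellar granule cells 5 genes were called higher, *Ctsz* (1.01), *Ctsf* (0.83), *Ctsb* (0.69), *Ctsl* (0.42) and *Ctsd* (0.25), against 34.7% of tested genes. Called lower were 4, *Ctsc* (-4.56), *Ctss* (-3.03), *Ctsh* (-2.26) and *Ctso* (-1.10), against 42.4%, and the medians were 0.10 for the cathepsins and -0.21 for all genes. The lower genes were those with means under 20 TPM in all 4 neuronal types. The size of the lower folds rests on few counts: *Ctss* had -1.51 in the batch 2 libraries alone, *Ctsc* -5.35 without cerebellar granule replicate 3, and *Ctsh* -1.37 with counts rebuilt from TPM and -3.88 with protein-coding transcripts alone. The microglia markers were also lowest in these libraries, as given above, and their part in the low values was not tested.

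As mean TPM, dentate granule cells had the lowest levels of *Ctsb*, *Ctsd*, *Ctsl* and *Ctsz*, and layer V neurons those of *Ctsa* and *Ctsf*. The edgeR folds, from estimated counts, ordered these types the other way for *Ctsa* (-0.33 in dentate granule cells, -0.12 in layer V neurons). They also did for *Ctsf* (-0.73 and -0.65), so which type was lowest depends on the measure. In dentate granule cells 6 genes were called lower, *Ctsz* (-1.42), *Ctsl* (-1.0), *Ctsd* (-0.93), *Ctsb* (-0.83), *Ctsf* (-0.73) and *Ctsa* (-0.33), against 29.1% of tested genes. Called higher were *Ctsh* (1.39) and *Ctso* (0.67), against 33.9%. The median was -0.53 beside 0.06 over all genes. For *Ctsl* the edgeR adjusted p was 9.52e-13 (SE 0.04; 1.54e-93 to 5.04e-06 over the alternatives), and 3 of 3 dentate libraries were below every cerebellar and interneuron library, though not below every layer V library. *Ctsh* lost its call when only protein-coding transcripts were counted (1.68, on a few counts), and *Ctss*, not called, gained one within batch 2 (0.51).

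Layer V neurons differed least. Called higher were *Ctss* (1.39) and *Ctsz* (0.24), against 36.3% of tested genes, and called lower were 5, *Ctsf* (-0.65), *Ctsc* (-0.60), *Ctsl* (-0.28), *Ctsb* (-0.12) and *Ctsa* (-0.12), against 30.4%, with medians of -0.07 and 0.07. Only *Ctsf* and *Ctsl* held their calls in all 26 alternatives. *Ctss* lost its call within batch 2 (0.43), as did *Ctsa* (-0.11), *Ctsb* (-0.14) and *Ctsc* (-0.63), while *Ctsz* moved to 0.37. Without layer V replicate 1, 4 of the 7 calls were left, and *Ctsa* (-0.12), *Ctsc* (-0.54) and *Ctsz* (0.20) were lost. Without layer V replicate 2, 3 were left, and *Ctsa* (-0.11), *Ctsb* (-0.12), *Ctsc* (-0.39) and *Ctsz* (0.21) were lost. *Ctsc* also lost its call without dentate granule replicate 1 (-0.57) or cerebellar granule replicate 3 (-0.34) and moved to -0.91 without layer V replicate 3, and *Ctsz* lost its call without interneuron replicate 3 (0.17). *Ctsa* and *Ctsb* moved to -0.22 and -0.20 with counts rebuilt from TPM and to -0.08 each with protein-coding transcripts alone, where the call of *Ctsa* was lost. *Ctsc* lost its call with the batch 2 libraries in place of batch 1 (-0.47) and with the replicate number as a block (-0.60).

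**Figure D4:**
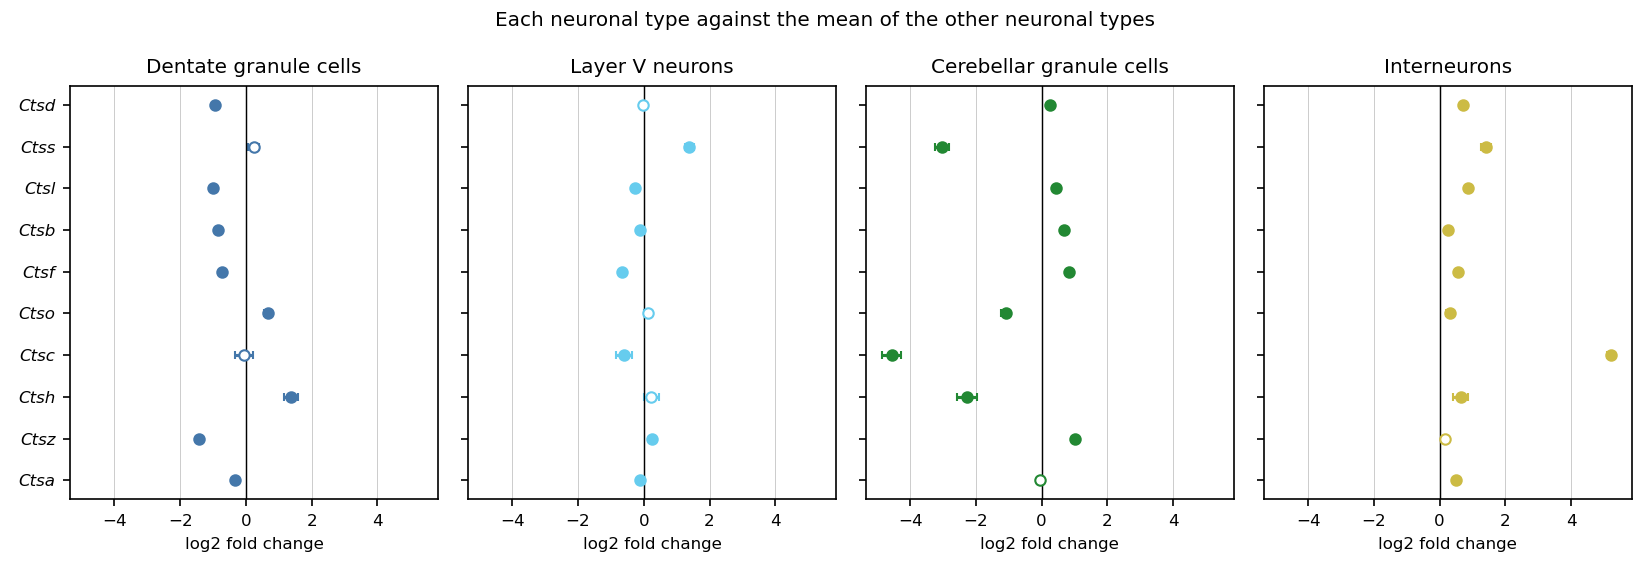
Log2 fold change of each cathepsin in each neuronal type against the mean of the other 3 (points, edgeR estimate; bars, SE; filled, adjusted p of at most 0.05). *Ctsc* lies at 5.22 in interneurons and -4.56 in cerebellar granule cells, and the dentate granule values of *Ctsd*, *Ctsl*, *Ctsb*, *Ctsf*, *Ctsz* and *Ctsa* lie below 0.

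The other cathepsin genes were scarcely seen. Of 13 listed, 3 had enough counts to be tested, *Ctse*, *Ctsk* and *Ctsw*, and all 3 were called higher in microglia than in neurons, where 43.4% of all tested genes were called higher and 38.4% lower. *Ctsk*, known from osteoclasts, was at 6.07, 4.08 (replicate 2) and 7.53 TPM in microglia and reached 3.35, 2.57 and 1.77 TPM in layer V neurons, above the other neuronal types. *Ctse* and *Ctsw* stayed below 1 TPM as means in every cell type.

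Among the inhibitors, 4 of the 7 listed cystatins and stefins were tested, and 3 were called higher and 1 lower in microglia than in neurons, against 43.4% and 38.4% of all tested genes. *Cst3*, the secreted cystatin C, was at 49509, 55225 and 51630.1 TPM in microglia and 11370, 9991 and 10496 TPM in astrocytes. In neurons it was between 131 TPM in a dentate granule library and 431 TPM in an interneuron library. The astrocyte markers stood at 2.47% of their astrocytic sum in layer V neurons and 1.21% in dentate granule cells. In interneurons they stood at 1.17% and in cerebellar granule cells at 0.445%. Their part in the neuronal *Cst3* levels, and in the ratios that follow, was not tested. The ratio of *Cst3* to the summed cathepsins was 6.55 ± 0.216 in astrocytes, 2.40 ± 0.105 in microglia, 0.445 ± 0.0201 in layer V neurons, 0.373 ± 0.0104 in interneurons, 0.270 ± 0.0181 in dentate granule cells and 0.137 ± 0.00483 in cerebellar granule cells (SD, n = 3). Astrocytes thus had the most *Cst3* transcript per cathepsin transcript, and both glial types had more of the former than of the latter. *Cst7*, cystatin F, was at 13.4, 17.7 and 15.6 TPM in microglia and at most 0.144 TPM in any other library, and *Cst6* was the gene called lower in microglia (-1.90).

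Of 30 other lysosomal hydrolases, 25 were called higher and 5 lower in microglia than in neurons, against 43.4% and 38.4% of all tested genes, with a median log2 fold change of 2.31 beside 4.94 for the cathepsins and 0.09 for all genes. Among them *Man2b1* had 5.64 and *Ids*, the lowest, -2.04. In astrocytes 25 were higher and 4 lower (median 0.96; 41.8% and 34.5% of all tested genes), and between the glial types 22 were higher in microglia and 6 lower (1.26; 34.9% and 40.5%). Among neurons, 22 of the 30 were called lower and 3 higher in dentate granule cells, against 29.1% and 33.9% of all tested genes. In interneurons 22 were higher and 5 lower, against 36.3% and 27.3%. In layer V neurons 11 were higher and 13 lower (36.3% and 30.4% of all tested genes), and in cerebellar granule cells 11 and 15 (34.7% and 42.4%). The oligodendrocyte markers were also highest in interneurons, as given above, and their part in the hydrolase calls there was not tested.

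Of 15 genes for the processing and sorting of lysosomal enzymes, 9 were called higher and 5 lower in microglia than in neurons, where 43.4% of all tested genes were higher and 38.4% lower, and their median, 0.27, was close to that of all genes. *Lgmn*, the legumain that cleaves several cathepsins from their long to their final chains, was at 4062, 3991 and 3771 TPM in microglia, 126, 115 and 118 TPM in astrocytes, and 36.0 to 177 TPM in neurons. The receptors for mannose 6-phosphate went opposite ways, *M6pr* with 1.56 and *Igf2r* with -1.93. In astrocytes 8 of the 15 were higher and 6 lower than in neurons, against 41.8% and 34.5% of all tested genes. Of 16 tested genes of 17 for the lysosomal membrane, its proton pump and its regulators, 9 were higher and 7 lower in microglia than in neurons, with *Cd68* at 9.61 and the pump subunit *Atp6v1a* at -3.40, and 7 were higher and 8 lower in astrocytes. The shares of all tested genes in these comparisons were those just given. Of 8 genes of the MHC class II pathway, 7 were higher and 0 lower in microglia than in neurons, against 43.4% and 38.4% of all tested genes. In astrocytes 7 were higher and 1 lower, against 41.8% and 34.5%. However, *H2-Aa* had a mean of only 4.54 TPM in microglia and 6.14 TPM in astrocytes.

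For each cathepsin, up to 3 genes with the most similar profile are named by Pearson's r of log2(TPM + 1) over the 18 libraries, among 11692 protein-coding genes, as a description of patterns over libraries that fall into 6 cell types. *Ctss* was most like *C1qa* (r 0.999), *C1qc* and *Tyrobp*, and *Ctsh* like *Ceacam1* (0.998) and *P2ry12*. *Ctso* was most like *Pbxip1* (0.998), *Mr1* and *Lfng*, all highest in astrocytes with microglia next. *Ctsc* was most like *Evi2a* (0.991), which was also next highest in interneurons at 21.9 TPM, then *Cd82* and *Rffl*. *Ctsd* was most like *Arhgap11a* (0.996), *Tmem35b* and *Ctsa*, and *Ctsa* like *Fhod1* (0.996), *Tgfbi* and *Nucb1*. *Ctsl* was most like *Cd164* (0.987), *Frmd8* and *Nucb1*, and *Ctsz* like *Oma1* (0.991), *Tax1bp3* and *Tapbp*. *Ctsb* had the lowest top value, with *Os9* (0.983), *Kdelr2* and *Tapbp*, and *Ctsf* was most like *Pgm2* (0.991), *Pigv* and *Sowahc*.

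The bases before the transcription start were read from RefSeq promoters of GRCm38.p6. Of the 10 genes 8 had an entry, with 9 promoters in all, and *Ctsb* and *Ctsh* had none. The E-box CACGTG, which reads the same on both strands and is bound by TFEB and related factors, was in the 250 bases upstream of 4 of the 9, those of *Ctsa*, *Ctsd*, *Ctsf* and *Ctsl*, and of 6.02% of all 32851 promoters. The core GAGGAAG of the PU.1 motif, searched on both strands, was upstream of *Ctsc* alone among the 9, and of 10.6% of all promoters. A match describes the letters only, and binding was not measured.

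The E-boxes are shown in 30 bases each. The longer windows of these genes overlap annotated exons, and the 30 bases of *Ctsl* also overlap an exon of *Ctsl*-203, which begins within the E-box. The 30 bases of *Ctsa* and *Ctsd* lie downstream of the annotated starts of *Ctsa*-202 (164832873) and *Ctsd*-202 (142388038), within the spans of these transcripts. The E-boxes start 12 bases before the further RefSeq start of *Ctsa* and 98 bases before that of *Ctsd*, with a further copy at 245. Those of *Ctsf* and *Ctsl* start 79 and 236 bases before the RefSeq start. The windows are chr2:164833743-164833772 (plus strand), chr7:142387908-142387937 (minus), chr19:4855074-4855103 (plus) and chr13:64370739-64370768 (minus), in that order, with the E-box in capitals.
Ctsa: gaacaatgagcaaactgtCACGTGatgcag
Ctsd: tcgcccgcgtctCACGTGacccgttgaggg
Ctsf: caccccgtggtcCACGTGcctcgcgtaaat
Ctsl: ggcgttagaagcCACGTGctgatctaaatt

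The 250 bases before the starts of *Ctsc* (chr7:88277835-88278084, plus strand), *Ctss* (chr3:95526536-95526785, plus strand) and *Ctso* (chr3:81932351-81932600, plus strand) are given because these windows overlap no annotated exon, and because *Ctss* was led by microglia by the widest ratio, *Ctso* by astrocytes, and *Ctsc* had interneurons next. In *Ctsc* the capitals mark the PU.1 core on the minus strand, starting 197 and 150 bases before the start, and *Ctss* and *Ctso* held neither motif.
Ctsc: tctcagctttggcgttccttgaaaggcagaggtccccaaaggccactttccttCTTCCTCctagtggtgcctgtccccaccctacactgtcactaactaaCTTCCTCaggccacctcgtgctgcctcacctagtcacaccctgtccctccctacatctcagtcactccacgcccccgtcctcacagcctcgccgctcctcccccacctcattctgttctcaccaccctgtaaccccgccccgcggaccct
Ctss: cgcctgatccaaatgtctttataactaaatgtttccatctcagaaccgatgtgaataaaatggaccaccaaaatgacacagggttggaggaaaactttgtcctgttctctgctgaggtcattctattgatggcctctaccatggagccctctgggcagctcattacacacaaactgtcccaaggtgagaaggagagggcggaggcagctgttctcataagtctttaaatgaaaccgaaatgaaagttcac
Ctso: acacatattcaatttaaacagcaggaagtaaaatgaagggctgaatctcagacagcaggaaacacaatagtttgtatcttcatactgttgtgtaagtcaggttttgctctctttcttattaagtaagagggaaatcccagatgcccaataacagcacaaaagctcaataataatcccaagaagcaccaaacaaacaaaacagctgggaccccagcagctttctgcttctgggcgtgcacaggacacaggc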

How the data were processed

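Messenger RNA bound to HA-tagged ribosomes was sequenced in 22 libraries. Reads were trimmed by the authors (cutadapt 3.5) and assigned to GENCODE transcripts (kallisto 0.46.2). The deposited files hold estimated counts without normalization, and TPM with 1 common total per library. Both were summed over each gene's transcripts. Estimated counts were rounded and tested with edgeR 4.0.16 (TMM, quasi-likelihood) in R 4.3.3, all 6 cell types in 1 fit of 18 libraries, for genes with at least 10 counts in at least 3 libraries. P-values were adjusted by Benjamini-Hochberg over all genes tested, with 0.05 as the threshold, and the steps were tested on simulated data. Other steps used Python 3.11.15, numpy 2.4.6, pandas 2.3.3 and matplotlib 3.10.9. Comparisons among neurons share samples. Lists were the 10 cathepsins, other cathepsin genes, cystatins and stefins, processing and sorting of lysosomal enzymes, other lysosomal hydrolases, lysosomal membrane with proton pump and regulators, the MHC class II pathway, and marker lists of cell types. The members and gene lists were chosen with earlier results of these data known. From each list the genes named are those called with the largest changes, up to 3 per direction, or with a defining role; the levels of *Cst3*, *Cst7*, *Ctsk*, *Lgmn* and *H2-Aa*, *Igf2r* and *M6pr* are given for their roles. For likeness, genes needed a mean of 10 TPM in at least 1 cell type, and transcripts are named from 10% of a gene's TPM. Coordinates and exons are from GENCODE M21 and promoters from RefSeq. The alternatives were DESeq2 1.42.0, no filter on low counts, all 22 libraries with batch as a term, the batch 2 library in place of batch 1, the batch 2 libraries alone, the replicate number as a block, protein-coding transcripts only, counts rebuilt from TPM, TPM without mitochondrial transcripts for the summed level, and leaving out each replicate.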

Additional observations from a re-analysis of the deposited data

How the results depend on the processing

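Over 26 alternatives, the 780 values of the 10 cathepsins in the 3 comparisons that involve glia kept their direction and their side of the threshold. All 260 for cerebellar granule cells kept their side of the threshold, as did 258 of 260 for dentate granule cells, 247 for interneurons and 243 for layer V neurons. No called value changed direction, while 4 that were not called did: *Ctsc* in dentate granule cells (-0.17 to 0.21), *Ctsd* (-0.07 to 0.01) and *Ctsh* (-0.64 to 1.09) in layer V neurons, and *Ctsa* in cerebellar granule cells (-0.09 to 0.07). The count of cathepsins called in layer V neurons fell from 7 to 3 with the batch 2 libraries alone (1 higher and 2 lower), where each type but microglia and interneurons has 1 library, assumed to vary like the groups of 3. Leaving out 1 library gave 3 to 7 calls in layer V neurons and 7 to 10 in interneurons, and the same counts as with all libraries elsewhere. With the replicate number as a block, layer V neurons had 6 calls and the other counts did not change, and the numbers do not pair samples, with correlations of -0.10 to 0.11 between the deviations from their group means over 45 pairs of libraries that share a number. Counting protein-coding transcripts only, the summed level was 443 TPM in dentate granule cells, 525 in layer V neurons, 804 in cerebellar granule cells, 927 in interneurons, 1338 in astrocytes and 20765 in microglia, since retained-intron and other transcripts are left out. For microglia against neurons, DESeq2 shifted the median log2 fold change of all genes by 0.10 and protein-coding transcripts by 0.13, and for microglia against astrocytes leaving out interneuron replicate 3 shifted it by 0.10; the cause was not tested. *Ctsc*, *Ctsh* and *Ctss* had few counts in granule cells and layer V neurons, so their folds are the least certain.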
